A study of Caenorhabditis elegans with 2 samples.

Results

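The regions described here are peaks of NFYA-1 whose summits lay in long introns of Caenorhabditis elegans genes. A region was a member when its summit was in an intron of at least 1000 bp of a protein-coding gene, in no exon of any gene, and more than 500 bp from any piRNA, tRNA, snoRNA or snRNA gene. In the pooled list 2338 of 29478 nuclear regions met this rule, a share of 7.93% (exact 95% interval 7.63 to 8.25), and they lay in 1222 host genes. Of these members, 1077 were in a first intron, meaning the first intron of at least 1 annotated transcript, and 1261 were in later introns. A further 3565 regions lay in introns shorter than 1000 bp under otherwise equal conditions and served for comparison.

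The measurements are peak lists of ChIP-seq, sequencing of DNA that comes down with an immunoprecipitated protein, from whole young adult hermaphrodites of strain OP404, genotype unc-119(tm4063) III; wgIs404. The strain carries an integrated transgene that makes NFYA-1 with a GFP-FLAG tag at its C-terminal end, and chromatin was precipitated through GFP. There was 1 group of 2 biological replicates, whose lists were made against the same control, so no comparison of treatments or genotypes was possible and no test across samples could be run. All worms carried the same allele and transgene, and the cells of a whole worm were pooled, so the cell type behind a region cannot be told apart. Each list before thresholding held a fixed 30000 peaks that include background, and membership in it therefore does not mark a bound site.

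NFYA-1 is the worm form of the subunit that gives the NF-Y complex its contact with the DNA word CCAAT, and a histone-fold pair of other subunits completes the complex. Most introns of the worm are short. Long introns, often the first of a gene, are known to hold enhancers and the start sites of shorter transcripts, and are common in genes that act in neurons and muscle.

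The sequences below are 101 bp windows around member summits, from the RefSeq genome of WBcel235 (ce11), each written 5′ to 3′ along the host gene's strand. The first set holds windows with CCAAT on either strand (CCAAT or ATTGG in capitals). K02F3.2 is shown because it was the only member with CCAAT that also ranked among the 2000 highest regions of both replicates, and F19B2.7 and col-99, a collagen gene, because they were the other members with CCAAT among the 20 strongest. The summit in K02F3.2 lay 12 bp from the 3′ end of the intron, so its window reaches into the next exon.
K02F3.2, chrIII:848278-848378, plus strand: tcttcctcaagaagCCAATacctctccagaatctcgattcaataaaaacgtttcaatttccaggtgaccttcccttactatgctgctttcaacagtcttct
F19B2.7, chrV:20153578-20153678, plus strand: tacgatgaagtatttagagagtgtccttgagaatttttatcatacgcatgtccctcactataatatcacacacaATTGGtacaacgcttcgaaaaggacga
col-99, chrIV:144530-144630, minus strand: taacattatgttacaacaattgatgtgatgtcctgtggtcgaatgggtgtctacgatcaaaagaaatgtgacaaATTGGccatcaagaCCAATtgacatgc

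The next set holds the strongest members with the telomere repeat unit of the worm, TTAGGC, in the window (TTAGGC or GCCTAA in capitals).
tig-3, chrII:15248614-15248714, minus strand: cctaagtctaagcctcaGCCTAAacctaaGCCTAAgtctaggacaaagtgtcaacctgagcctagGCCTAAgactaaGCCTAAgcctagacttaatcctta
cpna-1, chrII:4194730-4194830, plus strand: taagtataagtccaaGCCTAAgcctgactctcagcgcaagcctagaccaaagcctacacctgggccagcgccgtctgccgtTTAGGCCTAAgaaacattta
F19C7.8, chrIV:4630900-4631000, minus strand: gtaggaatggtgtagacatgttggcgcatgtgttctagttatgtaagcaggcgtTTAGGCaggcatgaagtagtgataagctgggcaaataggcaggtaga

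The last set holds neither word within 50 bp and is all in lower case. F16H6.9 was the second strongest member, and the summit in orai-1 lay 9 bp from an annotated start of a transcript of that gene.
F16H6.9, chrV:18218023-18218123, plus strand: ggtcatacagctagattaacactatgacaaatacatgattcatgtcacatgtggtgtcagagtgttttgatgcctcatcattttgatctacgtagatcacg
orai-1, chrIII:652838-652938, plus strand: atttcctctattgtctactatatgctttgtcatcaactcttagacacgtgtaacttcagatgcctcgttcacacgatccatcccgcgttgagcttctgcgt

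Long intron members were spread over most of the pooled list, and few of them stood at its strong end. Their signal values, the peak strength the authors deposited on a scale not given in the sources used here, ran from 13.5 to 43 with a median of 17. The median over all nuclear regions was 17.5, and the highest nuclear value was 83.4. First and later introns had medians of 17 and 17.1, and shorter introns 17.1. In the highest 10% of nuclear regions by signal there were 171 members, 7.31% (6.29 to 8.45). Regions with summits in exons were in that part of the list in 13.1% of 16069 cases. The final list, which the authors thresholded by the irreproducible discovery rate, overlapped 0.241% of nuclear regions, 71 in all. It overlapped 1 member, in tig-3, which is 0.0428% of the members (0.00108 to 0.238). At the length minimum of the rule, the 168 members in introns from 1000 to under 1100 bp had a median signal of 16.2, and the 156 regions in introns from 900 to under 1000 bp had 16.5.

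**Figure D1:**
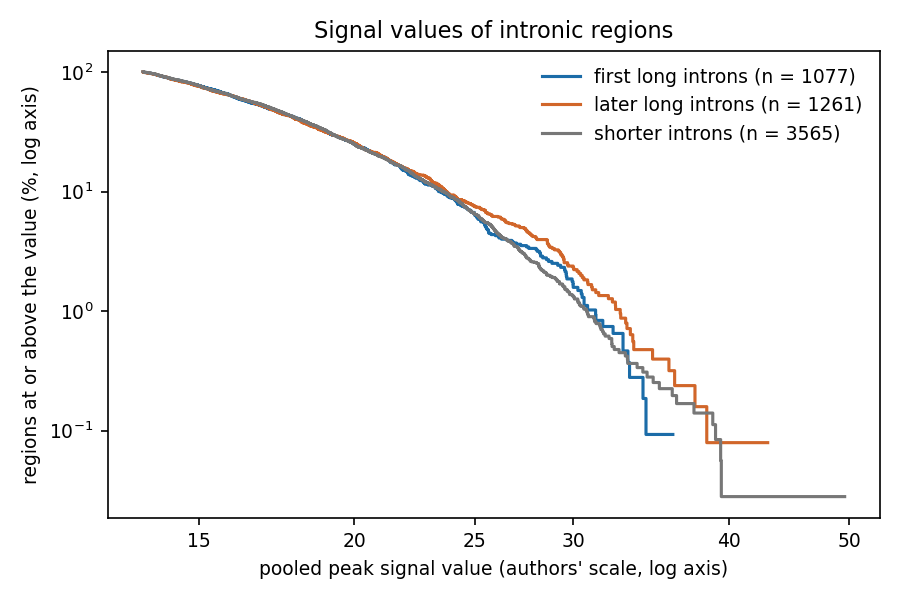
Share of regions (vertical, %, log axis) at or above each pooled signal value (horizontal, authors' scale, log axis) for first long introns (1077), later long introns (1261) and shorter introns (3565). The curves overlie each other around the medians of 17, 17.1 and 17.1 and separate only among the few strongest regions, which end at 36.1, 43 and 49.6.

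The replicates placed the members differently. A replicate 1 region overlapped 1340 members (57.3%) and a replicate 2 region 1729 (74.0%), while 885 (37.9%) were found in both lists and 154 (6.59%) in neither. Over all nuclear regions the shares were 62.3% in replicate 1, 76.2% in replicate 2, 43.3% in both and 4.87% in neither. Members found in replicate 1 had a median signal of 7.83 there, with quartiles of 6.69 and 9.53, and those found in replicate 2 had 12.1, with quartiles of 10.4 and 14.3. Across the 885 members in both lists the signal values had a Spearman rho of 0.13, a description over regions that share the same control, the same libraries and a pooled threshold. Over all nuclear regions in both lists rho was 0.14, so the weak agreement was not particular to long introns. Among the 100 strongest members 95% were in both lists, and among the 338 weakest 6.21% were. The pooled signal that orders them was made from the same reads, so this fall is a description and not a test. Members overlapped by the 10000 highest regions of each replicate numbered 148, 6.33% (5.38 to 7.39), against 9.24% of all nuclear regions. Only 11 members, 0.470%, were overlapped by the 2000 highest of both replicates, against 0.879% of all nuclear regions.

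**Figure D2:**
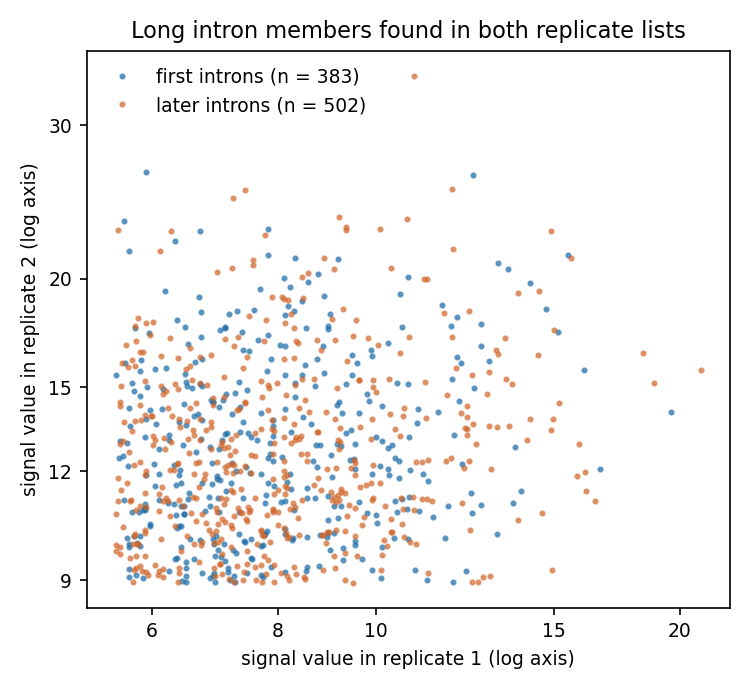
Signal value in replicate 1 (horizontal) and replicate 2 (vertical), both on log axes and on the authors' scale, for the 885 members found in both lists, first introns (383) in blue and later introns (502) in orange. The points form a broad cloud, and the highest in replicate 2, tig-3 at 34.2, has 10.9 in replicate 1.

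The strongest member lay in intron 2 of tig-3 and was the region on the final list. Its pooled signal value was 43, rank 17 in the nucleus, with 10.9 in replicate 1 and 34.2 in replicate 2. It thus ranked 6 in replicate 2 and 3465 in replicate 1. The window printed above holds 4 copies of TTAGGC, and 69.3% of it is soft-masked in the genome file as repeat or low-complexity sequence. F16H6.9 came next at 38.4, with 14.9 and 22.7 in the replicates and ranks of 455 and 351. F19B2.7 had 37.6 in the pooled list, 22.8 in replicate 2 and 5.55 in replicate 1, where it ranked 28862 and so stood near the end of the list.

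Among the 20 strongest members several host genes code for membrane and signalling proteins. Intron 5 of dsh-1, a Dishevelled gene of Wnt signalling, held a region at chrII:5222901-5223190 with 36.2 (11.9 and 25.3 in replicates 1 and 2). The first intron of kvs-5, a voltage-sensitive potassium channel gene, held chrIV:748197-748486 with 36.1 (15.5 and 21.3) and ranked 316 and 578, which places it high in both replicates. Intron 3 of orai-1, the store-operated calcium channel, held a region at 35.8 (18.8 and 15.2) and another at 33.3 (15.6 and 21.1). The former ranked 51 in replicate 1 and 5065 in replicate 2, the latter 300 and 609. The first intron of mod-5, the serotonin reuptake transporter, had 32.9 (12.5 and 26.3), and that of dgn-1, a dystroglycan gene, 33.3 (15.2 and 17.3).

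Others of the 20 lay in genes of RNA biology, metabolism and muscle. The gene nrde-4, which acts in nuclear RNA interference, had 34.1 in its first intron (14.2 and 19.8). This summit was 212 bp from a transcript start of cima-1 that lies within the same intron. The cytoplasmic poly(A) polymerase gene gld-2 had 32.8 (18.4 and 16.4), and mex-3, an RNA-binding regulator of early development, had 32.7 (10.1 and 22.8). An intron of acs-1, an acyl-CoA synthetase gene, held chrV:6528957-6529246 with 34.3 (19.6 and 14). It ranked 35 in replicate 1 and 7361 in replicate 2, the reverse of tig-3. The giant muscle protein gene unc-89 had 32.9 (13.5 and 20.5) and cpna-1, a copine gene, 33.1 (9.20 and 23.5). The remaining hosts were K02F3.2 at 34.7 (13.8 and 19.2), the cytochrome P450 gene cyp-13A3 at 33.6 (9.34 and 22.7), C54G6.3 at 33.5 (7.43 and 25.3), F19C7.8 at 33.2 (14.7 and 18.4) and col-99 at 33.1 (9.34 and 22.9). Values were lower in replicate 1 than in replicate 2 for most of them, but the 2 lists have different medians and their scales were not set equal.

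The 11 members among the 2000 highest of both replicates were in F16H6.9, kvs-5, K02F3.2, nrde-4, orai-1, F19C7.8, unc-89, mod-5, gei-3, C38C3.6 and nhr-239. Of these, gei-3 (32.3, with 12.4 and 18.4) and C38C3.6 (31.3, with 13.2 and 20.8) were named after their values were seen. The nuclear hormone receptor gene nhr-239 had 31, with 14.5 and 19.3. Within this group the windows had a GC content of 32.7% to 53.5%, and CCAAT stood within 50 bp of the summit only at K02F3.2, 34 bp upstream of it.

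CCAAT was no more frequent at members than in long introns as a whole by more than the counting error. The search covered either strand up to 50 bp from a summit, and a match describes the letters, not a bound site. It was present in 6394 of the 29478 nuclear regions, 21.7%, and in 470 of the 2338 members, 20.1% (18.5 to 21.8). Windows of the same length centred on every base of long intron sequence that meets the rule held it in 19.1% of cases, which is within the members' interval. Of the 470, the copy nearest to the summit was on the host strand in 246 members and on the opposite strand in 224. The longer words CCAATCA and CCAATCG, each searched alone on both strands and both containing CCAAT, were in 1.03% (0.659 to 1.52) and 0.727% (0.424 to 1.16) of members, against 1.03% and 0.461% of all windows and 1.59% and 0.909% of all nuclear regions.

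First and later introns were then compared for CCAAT. It was present in 223 of 1077 first-intron members, 20.7%, and in 247 of 1261 later-intron members, 19.6%, so that the odds ratio was 1.07 with an interval of 0.871 to 1.32 (Fisher's exact test, two-sided, p = 0.502, adjusted 0.502 over 6 tests). This direction turned in the list of replicate 1 alone, with 17.2% and 21.8% (odds ratio 0.743, Fisher's exact test, adjusted p = 0.0192), while replicate 2 alone gave 21.2% and 20.2%. Long and shorter introns gave 20.1% and 18.7%, an odds ratio of 1.1 (0.958 to 1.25; Fisher's exact p = 0.177, adjusted 0.502). Here replicate 2 alone passed the threshold, with 20.7% and 17.3% (odds ratio 1.24, Fisher's exact test, adjusted p = 0.0047), and replicate 1 alone had 19.8% in both. No difference in CCAAT therefore held in both replicate lists. These p-values refer to regions within a list and not to samples, and those of single replicates were adjusted over fewer than 6 tests.

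**Figure D3:**
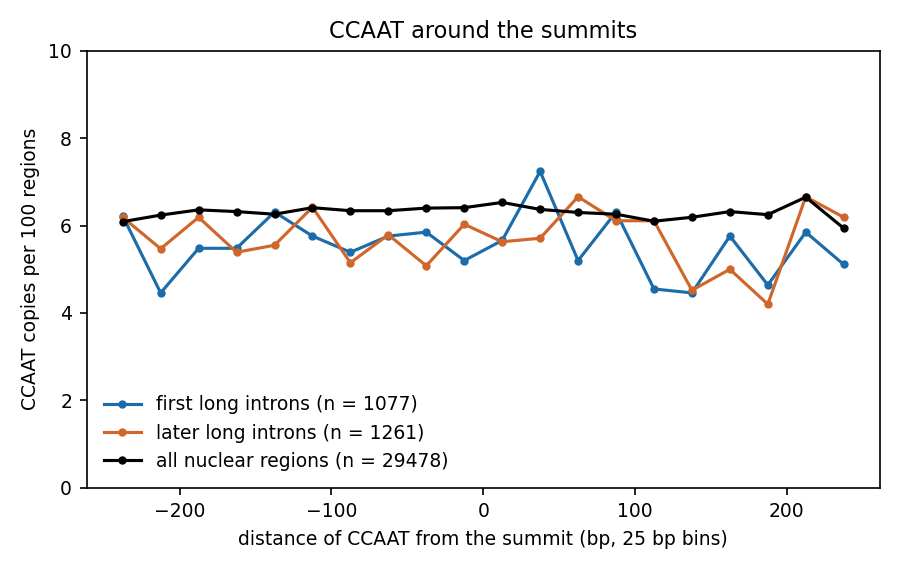
Copies of CCAAT on either strand per 100 regions (vertical) by distance from the summit in bp (horizontal, bins of 25 bp) for first long introns (1077), later long introns (1261) and all nuclear regions (29478). No line peaks at the summit: all regions stay between 5.94 and 6.65 copies, first introns between 4.46 and 7.24 and later introns between 4.20 and 6.66.

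Along the members' own order, CCAAT did not become more frequent toward the strong end. The 100 strongest members held it in 14% of cases (7.87 to 22.4), those ranked 101 to 250 in 24.0% (17.4 to 31.6) and the 338 weakest in 19.5% (15.4 to 24.2). These intervals overlap. GC content moved with rank over the same members, from a median of 40.6% in the 100 strongest to 35.6% in the weakest, and its part in the result was not tested. Long intron sequence had a median GC content of 32.7% over all windows, all members 36.6% and all nuclear regions 39.6%. Soft-masked bases made up 51.2% of long intron sequence but 28.4% of the bases within 50 bp of member summits and 18.4% within 50 bp of all nuclear summits.

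The telomere repeat unit stood at a larger share of members than of the intron sequence around them. TTAGGC, searched on both strands within 50 bp, was present at 143 members, 6.12% (5.18 to 7.17), against 3.88% of all windows of long intron sequence and 2.94% of all nuclear regions. The members of the lists of replicate 1 and replicate 2 held it in 5.88% (4.98 to 6.90) and 5.61% (4.72 to 6.61). First and later introns had 6.13% and 6.11%, and shorter introns had 6.73% (5.93 to 7.60), so the share was not particular to long introns. By rank it was 14% (7.87 to 22.4) in the 100 strongest members, 6.60% in those ranked 501 to 1000 and 3.85% (2.06 to 6.49) in the 338 weakest. Median GC content also differed, 36.6% at members and 32.7% over all long intron windows, and fell with rank. Its part in the share of TTAGGC was not tested. Besides tig-3, F19C7.8 and cpna-1, the strongest members with the word were in pat-12, a hypodermal gene needed for muscle attachment (31.7), cox-6B (31.3), C38C3.6 (31.3), ptr-16, a Patched-related gene (31.1), nhr-239 (31), rgs-7, a regulator of G protein signalling (30.6), and gei-1 (30.4). Several of these were named after their values were seen. The summit in cox-6B lay in a first intron of 86515 bp, 2265 bp from a start of gldi-9 within that intron. Ranks in replicates 1 and 2 were 25576 and 85 at pat-12 and 232 and 4280 at rgs-7, and ptr-16 and gei-1 had no region in replicate 1. C38C3.6 and nhr-239, as given above, were among the 2000 highest of both.

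A pair of other words was counted in the same way. GAGAGA was in 6.72% of members (5.73 to 7.81), against 5.19% of all long intron windows and 5.39% of all nuclear regions. Shorter-intron regions held it in 3.20% of cases and all windows of shorter introns in 3.22%. It was in 6.99% of the members of replicate 2 but in 4.94% (4.11 to 5.88) of those of replicate 1, so the higher share was not seen in both lists. The GATA-type word TGATAA was in 7.36% of members (6.33 to 8.49), against 8.44% of all windows and 8.69% of all nuclear regions.

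No difference in strength between first and later introns passed the threshold. The highest 10% by signal held 73 first-intron members, 6.78%, and 98 later-intron members, 7.77% (odds ratio 0.863, 0.621 to 1.2; Fisher's exact p = 0.381, adjusted 0.502), and in replicate 2 alone the shares were 8.29% and 7.81%. Members among the 10000 highest of both replicates were 61 (5.66%) and 87 (6.90%), an odds ratio of 0.810 (0.568 to 1.15; Fisher's exact p = 0.234, adjusted 0.502). Against shorter introns, the highest 10% held 7.31% of members and 6.76% of the 3565 shorter-intron regions (odds ratio 1.09, 0.883 to 1.34; Fisher's exact p = 0.433, adjusted 0.502). In both replicates' 10000 highest were 6.33% and 7.10% (odds ratio 0.885, 0.712 to 1.1; Fisher's exact p = 0.267, adjusted 0.502). The intervals include odds ratios on both sides of 1, so equality is not shown.

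The comparison of long with shorter introns among the highest 10% depended on the list and the definition. Replicate 1 alone gave 6.46% and 8.23% (odds ratio 0.770, Fisher's exact test, adjusted p = 0.0208), and replicate 2 alone 8.03% and 6.77%. With the highest 5% in place of 10%, members were more frequent, 4.19% and 2.78% (odds ratio 1.53, adjusted p = 0.0226 by Fisher's exact test), and with a minimum length of 2000 bp the shares were 8.57% and 6.37% (odds ratio 1.38, adjusted p = 0.0214 by the same test). Shorter-intron regions also reach into exons more often: the peak itself overlapped an exon in 80.6% of them and in 28.5% of members.

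Per base, regions were denser in first than in later long introns. Sequence that meets the rule came to 6.211 Mb in first and 8.864 Mb in later introns and held 173 and 142 regions per Mb, a ratio of 1.22. The replicate lists gave 175 and 151 (ratio 1.16) and 181 and 143 (ratio 1.26). Introns that were first in every transcript had 180 per Mb and those first in only some 150. Shorter introns had 225 per Mb, above the 155 of all long introns, and 238 against 161 and 230 against 159 in the replicates. Densities are descriptions of 1 group and were not tested.

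The order of first and later introns changed with intron length. In introns of 2000 to under 5000 bp the pooled densities were 191 per Mb in first and 139 in later introns. At 5000 to under 10000 bp they were 212 and 198, and at 10000 bp or more first introns had 157 and later introns 214. The replicate lists showed the same order in the class from 2000 bp, with 197 and 146 and with 201 and 146, and in the longest class, with 172 and 216 and with 170 and 220. In introns under 2000 bp replicate 1 had 133 and 137 and replicate 2 had 130 and 122. The longest class rests on 120 and 106 regions.

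**Figure D4:**
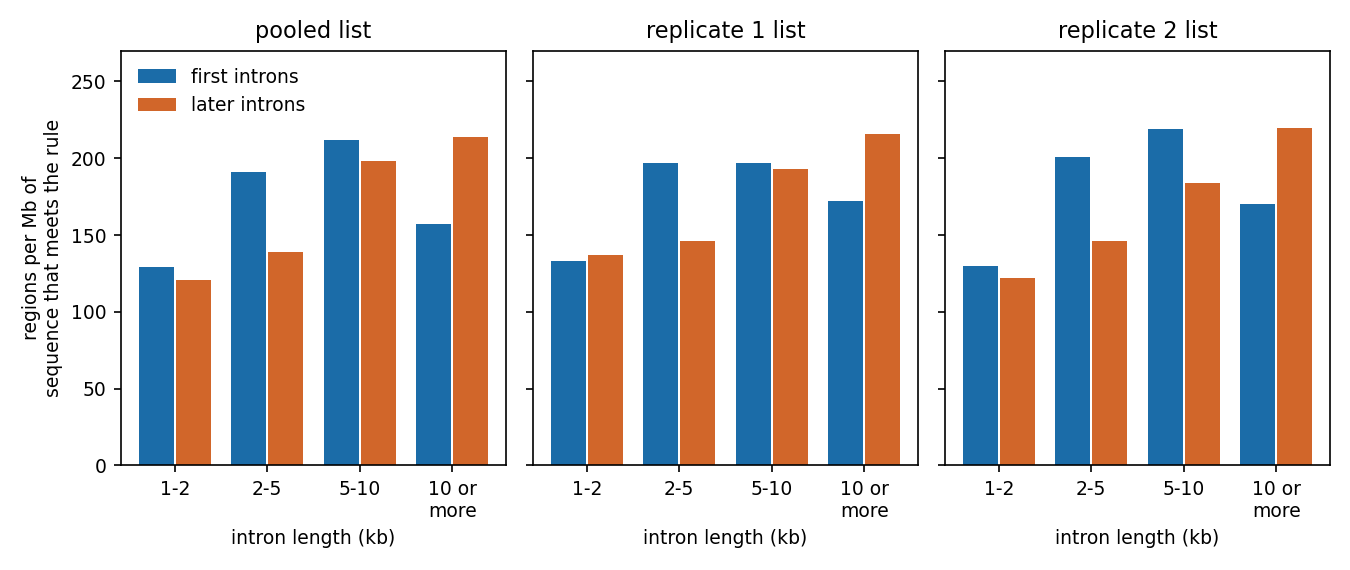
Regions per Mb of sequence that meets the rule (vertical) by intron length in kb (horizontal) for first (blue) and later (orange) introns, in the pooled list and each replicate list. First introns stand highest above later ones at 2 to 5 kb (191 and 139 in the pooled list), and below them at 10 kb or more (157 and 214).

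In later introns regions were denser near transcript starts than elsewhere. Within 500 bp of an annotated start of a protein-coding transcript lay 24.4% of all nuclear regions and 19.5% of members, 457 in number. In later introns these were 170 of 1261, 13.5% (11.6 to 15.5), while 8.06% of later-intron sequence is that close to a start, and the density was 238 per Mb there against 134 elsewhere. Replicate 1 had 207 and 146 and replicate 2 had 241 and 134. First introns, which begin near a start by their place, had 26.6% of members and 26.3% of sequence there, with 176 and 173 per Mb. Examples in the 20 strongest were orai-1, 9 bp from a start, and cpna-1, 466 bp from a start of mth-2, both in later introns. That start of mth-2 lies within the cpna-1 intron. CCAAT was in 16.5% of the later-intron members near a start and in 22.0% of the first-intron ones.

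**Figure D5:**
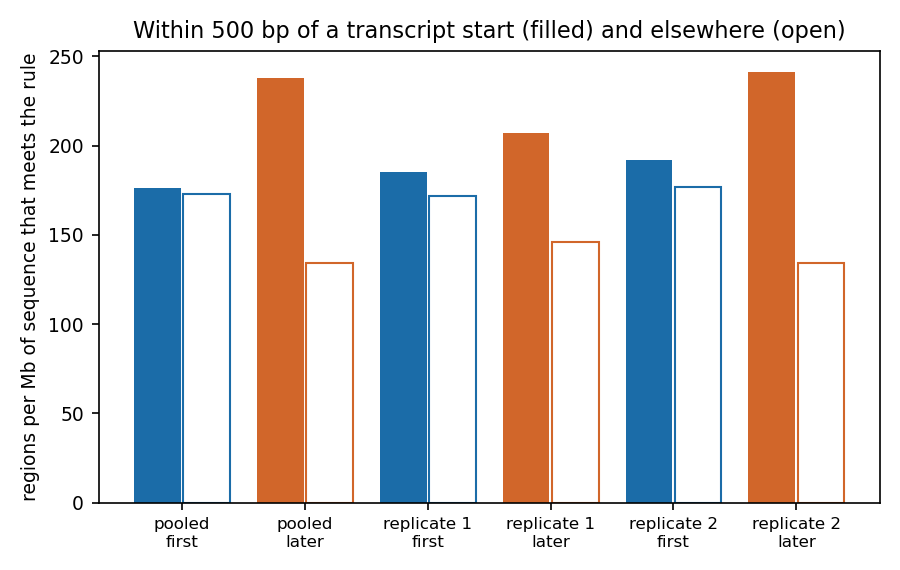
Regions per Mb of sequence that meets the rule (vertical) within 500 bp of a protein-coding transcript start (filled bars) and elsewhere (open bars), for first (blue) and later (orange) long introns in the pooled list and each replicate list. Later introns have 238, 207 and 241 per Mb near starts against 134, 146 and 134 elsewhere, while first introns have nearly equal bars.

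Within introns, members kept no strong preference for an end. In first introns 18.7% of members and 19.9% of sequence lay within 500 bp of the 5′ splice site, and 65.8% of members and 62.2% of sequence were 500 bp or more from both ends. In later introns the middle held 50.2% of members and 49.2% of sequence. CCAAT was in 17.1% of those later-intron members and in 20.6% of the first-intron members far from both splice sites. Density in first introns was 162 per Mb in the first 500 bp and 201 per Mb from 2000 to under 5000 bp into the intron, a distance only long introns reach. At 5000 bp or more it was 157 per Mb, so it did not rise steadily with depth.

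Chromosomes differed in density. The X chromosome held 523 members at 214 per Mb, with 211 and 224 in replicates 1 and 2, the highest of the chromosomes in each list. The lowest was chromosome III with 113 (120 and 116), and chromosome I had 128 (138 and 126). Chromosomes IV, II and V lay between, at 157, 163 and 169. Median signal differed little, from 16.9 on V to 17.4 on IV, and CCAAT was in 22.6% of X members and 17.7% of those on III. First introns made up more of the X members, 293 of 523, than of those on chromosome I, 144 of 394. These counts were not set against the amount of first-intron sequence on each chromosome.

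Host genes were unevenly loaded. Of the 4250 protein-coding genes with long intron sequence 28.8% hosted a member, 720 of them hosting 1, 421 hosting 2 to 4 and 81 hosting 5 or more. Those 81 genes held 566 members, 24.2%. The most were 19 in gap-2, a Ras GTPase-activating protein gene, over 9 introns and 32.8 kb (579 per Mb), with signals from 13.9 to 26.2. The presynaptic calcium channel gene unc-2 had 17 (474 per Mb, up to 29.6) and rin-1, a Ras and Rab interactor gene, 14 (790 per Mb, up to 24.6). The nuclear hormone receptor gene nhr-27 also had 14, all in its first intron of 100912 bp, at 270 per Mb. That intron spans other genes, among them the gei-3 member at chrX:12800881-12801170, and only 51.8 kb counted for nhr-27. The start nearest to its strongest member was one of cept-1, 2822 bp away. The spectraplakin gene vab-10 had 13, the cadherin gene hmr-1 12, Y75B7AL.2 and the calcium-activated potassium channel gene kcnl-2 11 each, and F19C7.8 and the afadin gene afd-1 10 each. Regions in the same gene share their surroundings and are not separate samples.

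Channel, adhesion and muscle genes hosted members at a higher density than all genes with a long intron, pooled and in both replicates. So did neurotransmitter receptor and homeobox genes, while the other gene lists with long introns were below all genes in the pooled list. In replicate 1, synaptic vesicle and nuclear hormone receptor genes were above all genes, with 186 and 166 against 161 per Mb. In replicate 2, synaptic vesicle genes had 159, the same as all genes. The lists were chosen with earlier results of these data known, and no list was tested. In most lists the genes had more long intron sequence than the median of 2086 bp over all genes. Homeobox genes had the same median of 2086 bp. Neurotransmitter receptor and nuclear hormone receptor genes had less, 1969 and 1677.5 bp. Of 49 voltage-gated and leak channel genes with long introns 33 hosted a member, 67.3%, against 28.8% of all genes with long intron sequence. The channel genes had 299 members per Mb (253 and 308 in the replicates), against 155 over all. Their median was 4573 bp of long intron per gene, against 2086 bp over all. Examples are the chloride channel gene clh-2 (30.3, with 10.7 and 20.1), unc-2 (29.6, with 12 and 18.1) and the potassium channel gene unc-58 (27.2, with 11.8 and 14.7). Of the highest-ranked channel hosts kvs-5 alone was among the 2000 highest in both replicates.

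Axon guidance and cell adhesion genes had the highest density, 331 per Mb (300 and 324), with 29 of 43 genes hosting a member, 67.4%. Over all genes with long intron sequence the hosting share was 28.8%. The median long intron sequence per gene was 3946 bp in this list, against 2086 bp over all genes. The receptor phosphatase gene ptp-3 had 30.5 (11.9 and 15.3), the semaphorin gene smp-1 29.6 with 29.6 in replicate 2 and no region in replicate 1, the perlecan gene unc-52 29.3 (12.9 and 15.6) and the cadherin-family gene cdh-10 29.2 (11.7 and 12.3). Muscle structure and attachment genes had 292 per Mb (241 and 292), with 15 of 26 genes hosting, among them dgn-1, unc-89, vab-10 at 31.4 and let-805, the myotactin gene, at 27.7. Their median was 3789 bp of long intron per gene, and vab-10 alone held 13 of the 40 members. CCAAT was in 21.4%, 18.6% and 15% of the members in channel, adhesion and muscle genes, beside 21.7% of all nuclear regions.

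Genes of transmission at synapses were mixed. Neurotransmitter receptor genes had 247 per Mb (247 and 253), 23 of 57 genes hosting, with the serotonin receptor gene ser-1 at 28.2 (5.69 and 21.5), the acetylcholine receptor subunit gene acr-19 at 24.8, the ligand-gated channel gene lgc-38 at 24.1 and the glutamate receptor gene glr-4 at 22.5. Synaptic vesicle and release genes had 139 per Mb (186 and 159), 14 of 31 genes hosting, with the synaptotagmin genes snt-5 at 29.9 and snt-3 at 21.3, aex-3, the exchange factor for RAB-3, at 24.9 and the synaptojanin gene unc-26 at 19.6. G protein and second messenger genes had 151 per Mb (158 and 142), 16 of 41 hosting, among them rgs-7 at 30.6, the phosphodiesterase gene pde-3 at 27.5 and the diacylglycerol kinase gene dgk-1 at 26.5, both with CCAAT, and rgs-2 at 25.6. CCAAT was in 25.6%, 23.8% and 19.1% of the members of these 3 lists, beside 21.7% of all nuclear regions. Over all genes with long intron sequence 28.8% hosted a member. The median long intron sequence per gene was 1969, 3677 and 4258 bp in these 3 lists, against 2086 bp over all genes.

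Regulatory genes were not alike. Homeobox genes had 235 per Mb (194 and 218), 17 of 49 hosting and CCAAT in 22.5% of members, with zag-1, a zinc finger and homeodomain gene, at 27.4, the Distal-less gene ceh-43 at 24.1, pax-3 at 23.5 and the LIM gene lim-7 at 23.3 with CCAAT. Nuclear hormone receptor genes had 114 per Mb (166 and 128), 11 of 58 hosting, and CCAAT at 1 of 24 members. Of these 24, 14 lay in the first intron of nhr-27, at 270 per Mb, and the 1 with CCAAT was among them. The values of this list therefore rest largely on 1 intron. Besides nhr-239 and nhr-27 (25.2) the strongest were nhr-7 at 22.8 and nhr-230 at 17.9. Receptor kinase, TGF-beta and Wnt genes also had 114 per Mb, 12 of 31 hosting and CCAAT at 6 of 24 members, with the TCF gene pop-1 at 29.6, the Ras exchange factor gene sos-1 at 27.5 and the Frizzled genes mig-1 at 23.2 and lin-17 at 21.8. Chromatin regulator genes had 92.3 per Mb, 5 of 13 hosting, with spr-5, a histone demethylase gene, at 17.2, ssl-1 at 16.6, the deacetylase gene hda-3 at 15.4 and swsn-1, of the SWI/SNF complex, at 14.4. CCAAT was at 3 of the 6 members in chromatin genes, those in ssl-1 and swsn-1 among them. These counts are small, and CCAAT was in 20.1% of all members and 21.7% of all nuclear regions. Of all genes with long intron sequence 28.8% hosted a member. Of the members named in regulatory genes, those in zag-1, nhr-230 and ssl-1 had no region in replicate 1, those in lin-17, spr-5 and swsn-1 none in replicate 2, and that in hda-3 none in either. None of the 80 ribosomal protein genes had long intron sequence.

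The subunit genes of the complex, nfya-1, nfya-2, nfyb-1 and nfyc-1, hosted no member, nor did egl-5 or tbx-2. The gene unc-119, whose mutant allele all the worms carried, hosted a weak one in its first intron. Its signal value was 14.5, rank 25323 of the nuclear regions, with 6.09 in replicate 1 and no region in replicate 2, and CCAAT stood within 50 bp of the summit. Whether the transgene or the allele bears on this value was not tested.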

How the data were processed

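The files are peak lists on ce11 for replicate 1, replicate 2, both replicates pooled, and the thresholded final list. Each peak carries a signal value in the deposited narrowPeak column for peak strength, of unknown scale. Which aligner and caller were used was not given in the sources used here. Peaks, as the deposited file descriptions state, were called per replicate and on the pooled reads against the same control, and the authors thresholded the final list by the irreproducible discovery rate. The lists carry no read counts, so the depth is unknown and intervals cover the counting of regions only. Lists on ce10 were not used.

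Peaks that shared at least 1 bp became 1 region, with the summit of the peak of highest signal. Introns, exons and transcript starts came from Ensembl release 115 on WBcel235, and sequence and soft-masking from its RefSeq genome. A summit was assigned to the shortest intron of at least 1000 bp that holds it. Densities divide regions by the bases where a summit would meet the rule. A replicate found a member when a merged region of its list overlapped it.

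Shares were compared by two-sided Fisher's exact tests with Benjamini-Hochberg adjustment over 6 tests at 0.05, exact conditional 95% intervals of odds ratios and Clopper-Pearson intervals of shares. Lists of single replicates allow no test of presence in both replicates, so their p-values were adjusted over fewer than 6 tests. The code was tested on simulated data. Alternatives used other lengths, windows, ranks, merging and each replicate list alone. Named genes are hosts of the 20 strongest members, the 10 genes with most members, members on the final list, members with CCAAT among the 2000 highest of both replicates, up to 4 hosts per gene list, and the genes of the complex with egl-5, unc-119 and tbx-2. Names outside this rule are marked in the text. Members, lists and tests were chosen with earlier results of these data known. Per the labels the replicates are biological, yet with 1 group no test across samples was possible. Scripts ran in Python 3.11.15 with scipy 1.17.1, pandas 2.3.3, numpy 2.4.6 and, for figures, matplotlib 3.10.9.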

Additional observations from a re-analysis of the deposited data

How the results depend on the processing

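Of 101 values recomputed under other settings, 77 were classed as the same as the main result. The classes were not uniform across results. A density ratio of long over shorter introns of 0.7, against 0.69 in the main setting, was classed as moved. The 1634 members with a minimum of 2000 bp, against 2338, were classed as the same. The odds ratio of CCAAT in first against later introns was 0.92 with a window of 25 bp and ran from 0.743 to 1.06 over the 2 lists of single replicates. That of long against shorter introns was 0.853 among the 10000 strongest regions and 0.96 with a minimum of 500 bp, and ran from 0.996 to 1.24 over single replicates. Presence in both replicates, long against shorter, turned to 1.25 with 1 region per host gene, 1.05 with the 5000 highest and 1.1 with a minimum of 2000 bp. For the highest 10% by signal, single replicates gave 0.965 to 1.07 for first against later introns and 0.77 to 1.2 for long against shorter introns. The latter was 0.978 for the highest 20%, 1.53 for the highest 5%, 1.38 with a minimum of 2000 bp and 1.62 with 1 region per host gene (adjusted p = 0.000106 by Fisher's exact test, within a range of 0.000106 to 1.0 over the alternatives), a setting that keeps the strongest of several regions. The cause of the other shifts was not tested.

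The density of long over shorter introns, 0.69, became 0.704 for the 10000 strongest regions, 0.886 and 0.598 with minima of 2000 and 500 bp, 0.7 with no distance from small RNA genes, 0.86 against introns of at least 300 but under 1000 bp and 0.674 where the shortest transcript intron decides, and ran from 0.677 to 0.689 over single replicates. First over later introns stayed between 1.16 and 1.27. There were 674 members among the 10000 strongest regions and 3508 with a minimum of 500 bp, and 2390 to 2430 in single replicates. No paired analysis was possible because there is only 1 group. The main limits are the unknown depth, lists of fixed length that include background, and 2 replicates whose ranks differ widely.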
